A study of Mus musculus with 6 samples.

Results

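The subject is the nuclear genes for the respiratory chain and the ATP synthase of mitochondria, measured in regulatory T cells (Treg), which hold other immune cells in check. Members were all entries whose symbol begins with Nduf followed by a, b, c, s or v and a digit, with Cox4 to Cox8, with Uqcr or with Atp5, together with Sdha, Sdhb, Sdhc and Sdhd. The rule uses names only and no measured value. It found 84 of the 23282 entries in each file: 35 for complex I, 4 for complex II, 8 for complex III, 20 for complex IV and 15 for the ATP synthase, and 2 more, Atp5s and Atp5sl, that carry the prefix without being subunits. Ndufa4 and Ndufa4l2 were counted with complex IV, where their proteins belong despite their names. Cox7a2l was counted with complex IV by its symbol alone.

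The respiratory chain passes electrons from NADH (through complex I) and from succinate (through complex II) to ubiquinone, then through complex III and cytochrome c to complex IV, which reduces oxygen. Complexes I, III and IV pump protons across the inner mitochondrial membrane, and the ATP synthase uses the returning protons to make ATP. A few core subunits are encoded in mitochondrial DNA, and those genes were not analysed here. Treg are known to rely on oxidative metabolism more than effector T cells do.

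The study compared Treg sorted by flow cytometry from spleens of C57BL/6 mice of 2 genotypes: wild type, and a conditional knockout of inositol polyphosphate multikinase (IPMK cKO), a kinase of inositol phosphates and phosphoinositides. There were 3 libraries per genotype, each labelled a biological replicate, and all cells were left unstimulated. The promoter that deletes Ipmk, the age of the mice and whether replicates were separate animals are not stated in the labels, so p-values measure the spread between these libraries, which may be partly technical. The Lexogen QuantSeq kit that was used sequences the 3′ ends of transcripts with a poly(A) tail, so a level is given as CPM, the count scaled to a common library size, on TMM-scaled library sizes, with no division by transcript length.

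Libraries held 7464546 to 8980395 counts, of which 16.7% to 32.1% lay in the ribosomal RNA precursor Rn45s. Counts of Ipmk were 129, 77 and 99 in wild type but only 3, 21 and 0 in IPMK cKO, in the order of replicates 1 to 3 that is used throughout. Foxp3, Il2ra and the other 6 T cell and Treg markers summed to 2727 to 3652 CPM in every library, against 19.7 to 66.7 CPM for B cell markers (Pax5 at 0 throughout), 14.4 to 85.5 CPM for myeloid, up to 60.7 CPM for erythroid and up to 53.9 CPM for CD8 T and NK cell markers (Cd8a, Ncr1 and Klrd1 at 0 throughout). IPMK cKO replicate 1 stood apart from the other 5 libraries: 50.3% of the 10475 genes tested differed there by over 2-fold from the other libraries' median (on log2 of CPM + 1), against 17.0% to 30.9% in each other library. A log2 fold change of a named member is therefore given without it as well where leaving it out turned the sign or moved the estimate by over 1.5 times. In bulk samples, fewer cells of a type and less RNA per cell cannot be told apart.

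As a whole, the genes took about 1% of the transcriptome in both genotypes. Of all counts outside Rn45s they took 1.06%, 0.845% and 1.05% in the wild type libraries against 1.05%, 0.842% and 1.04% in the cKO libraries. The group means were 0.984% ± 0.120 and 0.977% ± 0.118 (SD, n = 3 each). The lowest share of each group was in the library numbered 2, and same-numbered libraries had nearly equal shares. The difference between the group means was far smaller than the spread within either group, much of which followed the replicate number in both. The shares rest on 44653 to 73859 counts per library.

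Summed by complex, in CPM on TMM-scaled library sizes, the levels overlapped between the genotypes for each of the 5 complexes. On this scale the whole list had a log2 ratio of +0.12, against -0.01 as a share of counts outside Rn45s. Complex I, the NADH dehydrogenase, summed to 2468, 2020 and 2410 CPM in the wild type libraries against 3207, 2065 and 2331 CPM in the cKO libraries, a log2 ratio of means of +0.14. Its matrix arm, which holds the flavin and iron-sulphur clusters, summed to 1113 ± 146 CPM (SD, n = 3) in the wild type libraries against 1295 ± 381 CPM in the cKO libraries. The membrane arm summed to 1186 ± 107 and 1239 ± 253 CPM. In both arms IPMK cKO replicate 1 was the highest of the 6 libraries.

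Complex II, the succinate dehydrogenase, summed to 285, 264 and 369 CPM in the wild type libraries against 324, 321 and 423 CPM in the cKO libraries (log2 ratio +0.22). Complex III, the cytochrome bc1 complex, summed to 850, 775 and 792 CPM against 1201, 714 and 984 CPM (+0.26). The lowest of its 6 sums and the 2 highest were all in IPMK cKO. Complex IV, cytochrome c oxidase, summed to 1715, 1283 and 1624 CPM against 2137, 1265 and 1556 CPM (+0.10). The ATP synthase summed to 2170, 1724 and 2272 CPM against 2239, 1842 and 2165 CPM (+0.02). Without IPMK cKO replicate 1 the log2 ratios were -0.06 for complex I, +0.28 for complex II, +0.08 for complex III, -0.13 for complex IV and -0.04 for the ATP synthase, so 3 of the 5 changed sign. Other libraries turned signs too. Without wild type replicate 2 the ratio was -0.01 for complex IV and -0.09 for the ATP synthase, and without IPMK cKO replicate 3 it was -0.01 for the ATP synthase. Without Cox7a2l, its most abundant member, complex IV had a ratio of -0.02. The scale mattered as well, with all 6 libraries kept. As shares of counts outside Rn45s the log2 ratios were +0.01 for complex I, +0.11 for complex II and +0.13 for complex III. On that scale complex IV had -0.03 and the ATP synthase -0.10, both of the opposite sign to CPM. The groups overlapped there too.

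**Figure D1:**
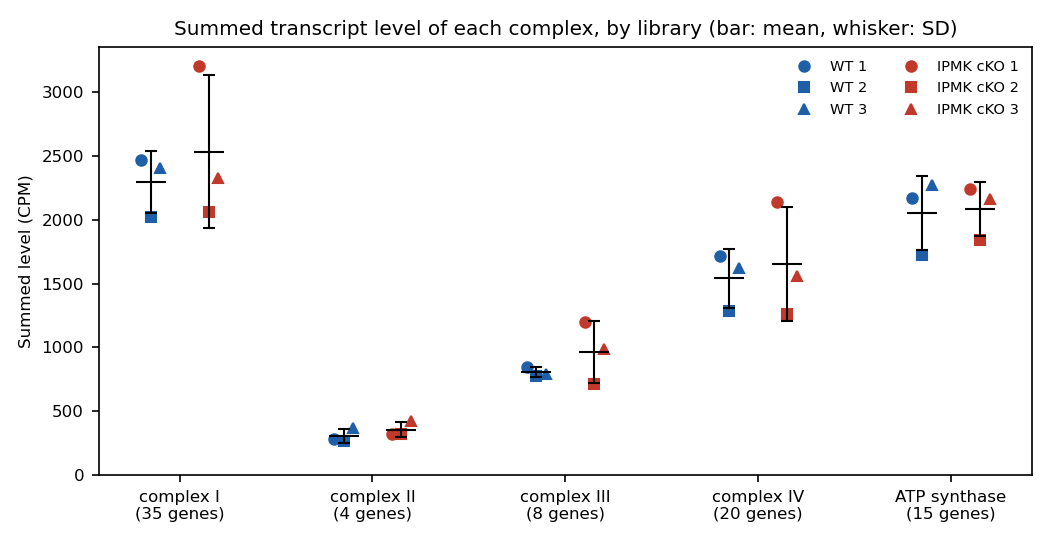
Summed level of the members of each complex in CPM (vertical axis, linear, from 0) for the 5 complexes (horizontal axis); each point is 1 library, blue for wild type and red for IPMK cKO, with the group mean and SD in black. The groups overlap in every complex, and IPMK cKO replicate 1 is the highest library for complexes I, III and IV.

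Gene by gene, none of the 78 members that passed the filter on low counts was called. edgeR's quasi-likelihood test called 0 members higher and 0 lower at an adjusted p of 0.05, where it called 0% of all genes tested in either direction, and the smallest adjusted p of a member was 0.9999. DESeq2 called 0 of the 81 members for which it gave an adjusted p (smallest adjusted p 0.783), against 0.00707% of all genes higher and 0.0212% lower. limma-voom called 0 (smallest adjusted p 0.867). The deleted gene Ipmk was itself not called by edgeR (log2 fold change -3.51), DESeq2 or limma-voom. An absence of calls therefore does not show that levels were unchanged. At an unadjusted edgeR p under 0.05 there were 3 members (Ndufa5, Ndufa11 and Ndufa12), or 3.85%, against 2.56% of all genes tested.

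Of the 76 subunit genes tested, 41 had log2 fold changes above 0 and 35 below, with a median of +0.08 (quartiles -0.27 and +0.35). The median over all genes tested was +0.03 (quartiles -0.43 and +0.46). Of these 76 subunit genes, 28 had an estimate whose interval of 2 standard errors lay wholly within 2-fold in either direction. For the rest, a 2-fold difference lay within the interval.

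**Figure D2:**
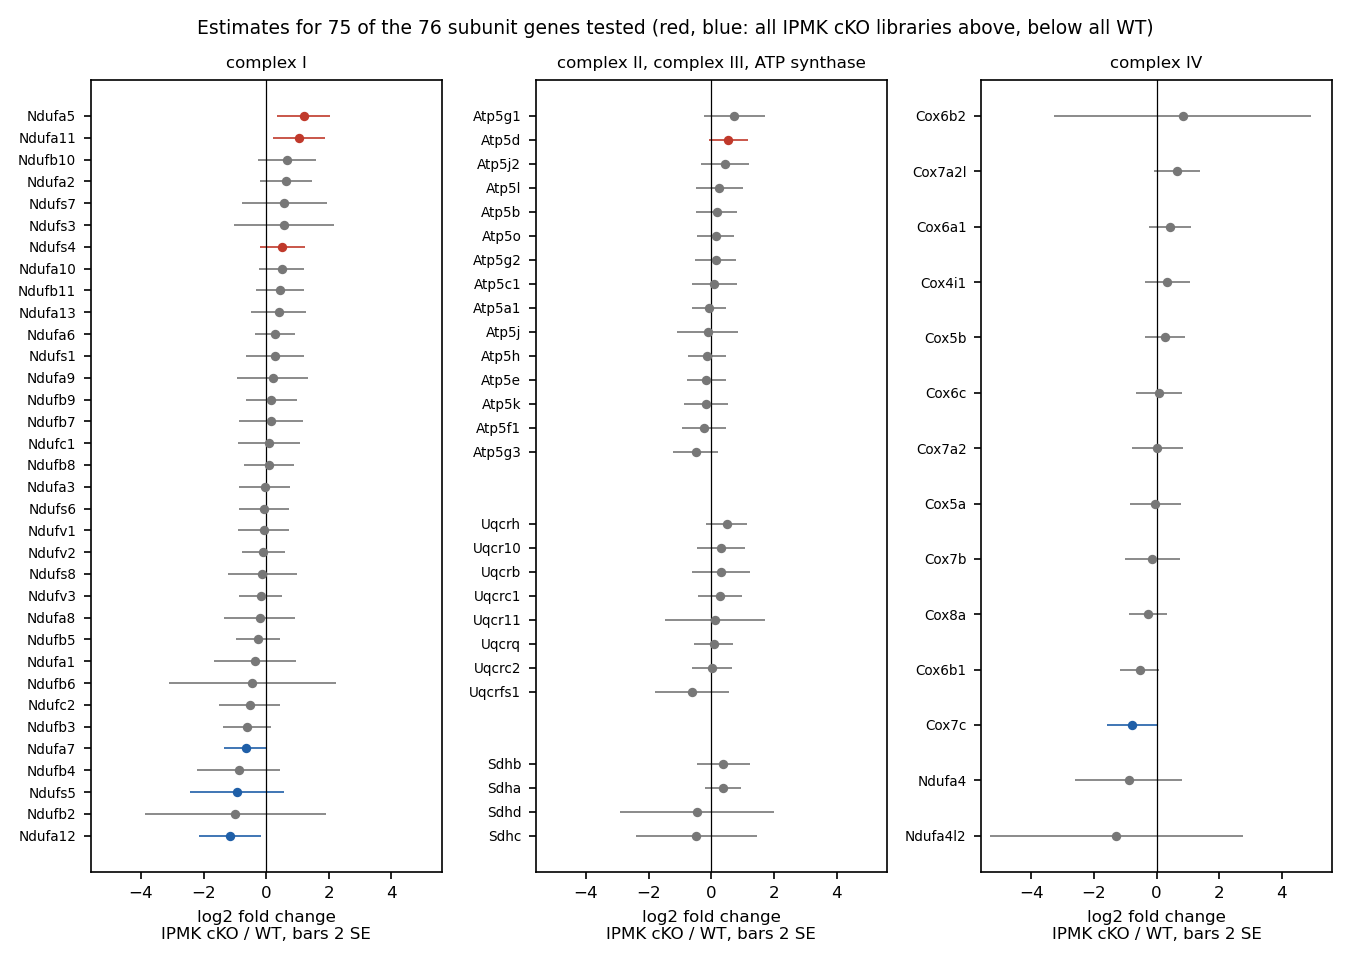
Log2 fold change of IPMK cKO over wild type (horizontal axis) with bars of 2 SE for 75 of the 76 subunit genes tested (vertical axis, by complex); red marks genes whose 3 IPMK cKO libraries all lay above the wild type libraries, blue those that all lay below, and grey the rest. Estimates lie on both sides of 0 in complexes I, II, III and IV and in the ATP synthase, and the widest intervals belong to genes of low or uneven level such as Cox6b2, Ndufa4l2 and Sdhd.

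For 9 of the 78 members the 3 libraries of a genotype did not overlap with those of the other, which is 11.5% against 10.4% of all genes tested. The share of members is near the background. In 5 of them every IPMK cKO library was higher (background 4.74%) and in 4 every one was lower (background 5.66%). Of the 9, 6 belong to complex I, which is 17.1% of its 35 genes.

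The complex I genes that lay higher in every cKO library were Ndufa5, Ndufa11 and Ndufs4. Ndufa5 (ENSMUSG00000023089, chromosome 6, 24518666 to 24528013 on the minus strand of mm10) encodes a matrix arm subunit and had 90.5, 69.3 and 55.4 CPM in the wild type libraries against 270, 92.6 and 131 CPM in the cKO libraries (log2 fold change +1.20, SE 0.42). Its lowest IPMK cKO library lay just above its highest wild type library, and its highest was replicate 1. Ndufa11 (ENSMUSG00000002379, chromosome 17, 56717767 to 56722141 on the plus strand), a membrane arm subunit, had 50.3, 40.5 and 28.0 CPM against 119, 58.9 and 68.1 CPM (+1.05, SE 0.42). Ndufs4, a matrix arm subunit whose loss causes Leigh syndrome, had 63.8, 51.9 and 66.8 CPM against 119, 69.5 and 73.5 CPM (+0.52, SE 0.36). In both genes replicate 1 was again the highest of the IPMK cKO libraries. Without that library the estimates were +0.64 for Ndufa5, +0.68 for Ndufa11 and +0.23 for Ndufs4.

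The complex I genes that lay lower in every cKO library were Ndufa12, Ndufa7 and Ndufs5. Ndufa12 (ENSMUSG00000020022, chromosome 10, 94198720 to 94221443 on the plus strand), a matrix arm subunit added late in assembly, had 57.4, 44.4 and 38.8 CPM in the wild type libraries against 29.1, 14.8 and 19.2 CPM in the cKO libraries (-1.16, SE 0.49). Its nearest libraries were 38.8 and 29.1 CPM, and the estimate was -1.47 without IPMK cKO replicate 1. Ndufa7 (ENSMUSG00000041881, chromosome 17, 33824572 to 33838317 on the plus strand), another matrix arm subunit, had 80.1, 72.2 and 79.5 CPM against 47.8, 43.9 and 55.6 CPM (-0.65, SE 0.34). Both genotypes were tight for this gene, with 77.3 ± 4.43 and 49.1 ± 5.96 CPM (SD, n = 3 each), and the estimate without IPMK cKO replicate 1 was -0.64. Ndufs5, a small subunit of the membrane arm, had 16.1, 22.3 and 26.6 CPM against 4.50, 15.8 and 13.6 CPM (-0.94, SE 0.75; -0.56 without IPMK cKO replicate 1). Its highest IPMK cKO library and lowest wild type library were nearly level.

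The other 3 were Cox7c, Atp5d and Atp5s. Cox7c, a small subunit of complex IV, had 95.3, 82.3 and 102 CPM in the wild type libraries against 29.0, 58.1 and 76.5 CPM in the cKO libraries (-0.77, SE 0.40; -0.47 without IPMK cKO replicate 1, its lowest library). Atp5d, the delta subunit in the central stalk of the ATP synthase, had 148, 120 and 145 CPM against 278, 154 and 170 CPM (+0.54, SE 0.32; +0.23 without that library). Atp5s, which encodes a coupling factor and not a subunit, had 0, 2.05 and 0 CPM (15 counts in all) against 5.49, 7.19 and 13.2 CPM (+3.64, SE 2.19). Its counts were few and it was not called.

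**Figure D3:**
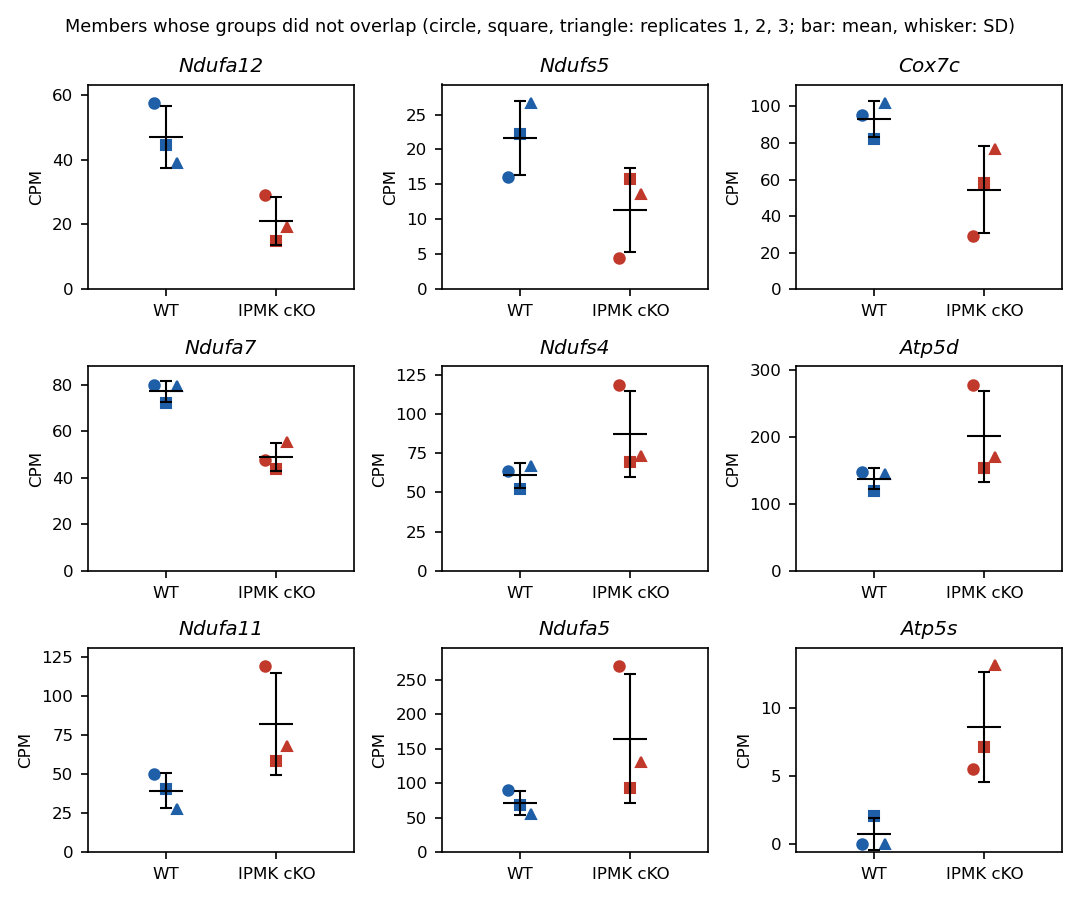
Level in CPM (vertical axes, linear, scaled per gene) of the 9 members whose wild type (blue) and IPMK cKO (red) libraries did not overlap; circles, squares and triangles are replicates 1, 2 and 3, with mean and SD in black. For Ndufa12, Ndufa7, Cox7c and Atp5s no library lies within the SD bar of the other genotype. For Ndufa5, Ndufs4 and Atp5d the lead of IPMK cKO replicate 1 makes up much of the difference in means.

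The start sites of these genes were searched for the letters of 3 factors known to bind promoters of respiratory genes. The motifs were GCGCA and GCGC with any 1 base between them for NRF1, CCGGAAG for the ETS family, to which GABPA belongs, and AAGATGGCG for YY1, each on both strands in the 250 bases before a RefSeq start on GRCm38.p6. Of the 69 members with an entry, 13 held the NRF1 letters before at least 1 start (18.8%, against 10.1% of tested genes with an entry and 4.23% of all genes in the table). The ETS letters stood in 12 (17.4%, against 17.5% and 7.83%) and the YY1 letters in 2 (2.90%, against 1.60% and 0.711%). Among the 9 genes above, 3 held the NRF1 letters before their most upstream start, and they are shown because they lie on both sides of the comparison, with the motif in capitals and 10 bases on either side, 5′ to 3′ on the gene's strand.
Ndufa5 (chr6:24527697-24527726, minus strand): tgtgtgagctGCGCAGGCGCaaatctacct
Ndufa11 (chr17:56717692-56717721, plus strand): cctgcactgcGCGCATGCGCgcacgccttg
Ndufs5 (chr4:123718265-123718294, minus strand): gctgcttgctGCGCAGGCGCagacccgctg
The matches begin 26, 60 and 98 bases before the start. Ndufa5 and Ndufs5 share the same 10 letters, although every IPMK cKO library was higher for the first gene and lower for the second. A match of letters is no evidence of binding.

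For Ndufv1 and Ndufs1, core subunits that carry redox centres of complex I, the groups overlapped. Ndufv1, which binds NADH and the flavin, had 40.9, 47.1 and 48.4 CPM in the wild type libraries against 49.7, 32.1 and 47.2 CPM in the cKO libraries (-0.08, SE 0.41; -0.20 without IPMK cKO replicate 1). Ndufs1, the largest subunit, had 23.7, 53.6 and 77.6 CPM against 77.5, 55.9 and 54.6 CPM (+0.28, SE 0.46; +0.10 without IPMK cKO replicate 1). Its lowest library was wild type replicate 1.

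By mean over the 6 libraries, the most abundant complex I transcripts were Ndufa2, Ndufa6, Ndufa10 and Ndufa5. The wild type mean of Ndufa5 was 71.7 CPM, below that of others such as Ndufb3 (114 CPM). Ndufa2, a small matrix arm subunit, had 162, 134 and 204 CPM in the wild type libraries against 446, 178 and 152 CPM in the cKO libraries (+0.63, SE 0.41), and without IPMK cKO replicate 1 its estimate was -0.02. Ndufa10, a kinase-like subunit of the membrane arm, had 113 ± 34.3 and 158 ± 54.5 CPM (SD, n = 3 each; +0.49, SE 0.35; +0.18 without that library). Ndufa6, a matrix arm subunit, had 148 ± 42.1 and 179 ± 29.4 CPM (+0.28, SE 0.31). Over complex I as a whole, 17 estimates were above 0 and 18 below, from -1.16 to +1.20, with a median of -0.05, and without IPMK cKO replicate 1 they were 14 above and 21 below with a median of -0.19. In the fit with all 6 libraries the matrix arm had 8 above and 8 below and the membrane arm 9 above and 10 below.

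In complex II, 2 of 4 estimates were above 0 and 2 below, and without IPMK cKO replicate 1 all 4 were above 0. Sdha, the flavoprotein, had 164, 138 and 119 CPM in the wild type libraries against 148, 192 and 209 CPM in the cKO libraries (+0.38, SE 0.29). Sdhb, the iron-sulphur subunit, had 50.1, 89.5 and 134 CPM against 175, 81.0 and 103 CPM (+0.39, SE 0.43; 0.00 without IPMK cKO replicate 1). The membrane anchors were uneven between libraries. Sdhc had 41.4, 20.6 and 78.9 CPM against 0.985, 41.7 and 58.1 CPM (-0.48, SE 0.97), and Sdhd 30.2, 15.9 and 36.4 CPM against 0.141, 5.62 and 54.2 CPM (-0.46, SE 1.22). IPMK cKO replicate 1 had 1 count of Sdhd, where replicate 3 had the highest level of all libraries, and without replicate 1 the estimates were +0.08 for Sdhc and +0.12 for Sdhd.

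In complex III, 7 of 8 estimates were above 0 and 1 below, with a median of +0.19, and the groups overlapped for all 8 genes. Without IPMK cKO replicate 1, 5 were above 0 and 3 below, with a median of +0.06. Uqcrh, the hinge protein that helps cytochrome c dock, had 260, 285 and 325 CPM in the wild type libraries against 591, 250 and 379 CPM in the cKO libraries (+0.49, SE 0.33; +0.11 without IPMK cKO replicate 1). Its mean over the 6 libraries was the highest of all members. The wild type mean was higher for Atp5g3 (384 CPM) than for Uqcrh (290 CPM). The core protein Uqcrc1 had 112, 105 and 65.9 CPM against 150, 94.3 and 95.8 CPM (+0.27, SE 0.35; +0.01 without IPMK cKO replicate 1), and Uqcrc2 had 113 ± 26.3 and 115 ± 23.4 CPM (SD, n = 3 each; +0.02, SE 0.32; +0.15 without it). Uqcrq and Uqcr10, small subunits, had estimates of +0.08 (SE 0.31) and +0.31 (SE 0.38), which were -0.08 and +0.11 without that library. Uqcrfs1, the Rieske iron-sulphur protein, was the member below 0, with 33.8, 46.3 and 42.4 CPM against 9.57, 46.2 and 24.3 CPM (-0.61, SE 0.59; -0.22 without IPMK cKO replicate 1). Its second IPMK cKO library was at the top of the wild type range, and the other 2 were below that range.

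Complex IV is built from subunits that in several cases exist as a ubiquitous and a tissue-restricted isoform, and for COX4, COX6A, COX7B and COX8 the Treg libraries held almost only the ubiquitous ones. The 6 members too low to test were all from this group. Cox7b2, Cox8b and Cox8c had no count in any library, which allows up to 0.304 to 0.422 CPM per library (3 counts, counting error only). Cox4i2, known from lung, had 2 counts in 1 wild type library, Cox6a2, the heart and muscle form, 1 count in 1 IPMK cKO library, and Cox7a1, also a heart and muscle form, 21 counts in wild type replicate 3 and 25 in IPMK cKO replicate 2. Their partners were well expressed: Cox4i1 took 99.8% to 100% of the counts of its pair, Cox6a1 99.9% to 100%, and Cox7b and Cox8a 100% in every library. Cox6b2, a testis form, took 0.0664% to 8.80% of its pair. Ndufa4l2 took 12.7%, 14.5% and 12.7% of the counts it shares with Ndufa4 in the wild type libraries against 0%, 18.3% and 1.12% in the cKO libraries.

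Of the ubiquitous complex IV genes, Cox4i1, needed for assembly of the enzyme, had 225, 162 and 202 CPM in the wild type libraries against 374, 147 and 224 CPM in the cKO libraries (+0.34, SE 0.36; -0.09 without IPMK cKO replicate 1). Cox5a had 53.2 ± 16.3 and 51.5 ± 10.4 CPM (SD, n = 3 each; -0.05, SE 0.41; +0.09 without it) and Cox5b 78.4 ± 17.0 and 95.1 ± 5.22 CPM (+0.28, SE 0.32). Cox6b1, which faces cytochrome c, had 225, 131 and 199 CPM against 104, 126 and 153 CPM (-0.54, SE 0.32), with an overlap of 1 library. Cox6a1 had 145 ± 25.6 and 195 ± 69.3 CPM (+0.43, SE 0.34; +0.17 without it), Cox8a 157 ± 29.1 and 130 ± 27.9 CPM (-0.27, SE 0.30; -0.44 without it) and Cox7b 84.8 ± 36.1 and 77.3 ± 36.2 CPM (-0.13, SE 0.43; +0.10 without it). None of these genes separated the genotypes. Of the 14 complex IV genes tested, 7 had estimates above 0 and 7 below, with a median of -0.01. Without IPMK cKO replicate 1, 5 were above 0 and 9 below, with a median of -0.27.

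Cox7a2l had 233, 213 and 245 CPM in the wild type libraries against 594, 248 and 244 CPM in the cKO libraries (+0.65, SE 0.37). Its 5 other libraries were nearly level, and without IPMK cKO replicate 1 the estimate was +0.09. Cox7a2, its relative in complex IV, had 161, 129 and 109 CPM against 217, 119 and 70.6 CPM (+0.03, SE 0.40; -0.49 without that library). Ndufa4 had 47.3, 35.4 and 22.3 CPM against 1.55, 28.1 and 26.9 CPM (-0.89, SE 0.85), and its hypoxia-induced relative Ndufa4l2 had 6.86, 6.01 and 3.22 CPM against 0, 6.27 and 0.304 CPM (-1.29, SE 2.02). For both, IPMK cKO replicate 1 was the lowest library, and without it the estimates were -0.35 and -0.71.

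In the ATP synthase, 8 of 15 estimates were above 0 and 7 below, from -0.51 to +0.73. For the genes of the catalytic head the groups overlapped. Atp5a1 (alpha) had 278, 252 and 271 CPM in the wild type libraries against 193, 270 and 295 CPM in the cKO libraries (-0.08, SE 0.27; +0.08 without IPMK cKO replicate 1), and Atp5b (beta), which holds the catalytic sites, had 151, 131 and 150 CPM against 101, 161 and 222 CPM (+0.17, SE 0.33; +0.41 without that library). The gamma subunit gene Atp5c1 had 88.4 ± 15.5 and 94.2 ± 36.8 CPM (SD, n = 3 each; +0.09, SE 0.36; -0.28 without that library). Atp5j2, a subunit of the membrane part, had 242, 142 and 206 CPM against 420, 155 and 225 CPM (+0.44, SE 0.39; -0.05 without it). The interval of 2 SE stayed within 2-fold for 9 of the 15 genes.

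Subunit c, which forms the rotating ring, is made from 3 genes whose mature proteins are identical and whose import sequences differ. Atp5g3 was the main source, with 444, 300 and 408 CPM in the wild type libraries against 148, 282 and 381 CPM in the cKO libraries (-0.51, SE 0.36; -0.22 without IPMK cKO replicate 1). Atp5g2 had 101, 78.2 and 95.8 CPM against 80.1, 90.3 and 131 CPM (+0.14, SE 0.33; +0.27 without it), and Atp5g1 had 36.8, 32.3 and 45.6 CPM against 107, 31.7 and 51.7 CPM (+0.73, SE 0.48; +0.12 without it). None of the 3 genes separated the genotypes by level.

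As shares of the subunit c counts, Atp5g2 and Atp5g3 did not overlap between the genotypes. By level, which is a different measure, the groups did not overlap for 10.4% of all genes tested. The 3 shares sum to 100%, so they are tied to each other, and the shares within the COX6B, COX7A and NDUFA4 sets overlapped. Atp5g2 made up 17.3%, 19.1% and 17.4% in the wild type libraries against 23.9%, 22.3% and 23.3% in the cKO libraries, and the 3 libraries of each genotype lay close together. Atp5g3 made up 76.4%, 73.1% and 74.3% against 44.2%, 69.8% and 67.6%, so the cKO libraries all lay below the wild type range. Atp5g1 made up 6.33%, 7.87% and 8.29% against 31.9%, 7.85% and 9.16%, and only replicate 1 was far from wild type. These shares were looked at after the levels were known and were not tested. Pseudogene copies that share reads with these genes would make the shares uncertain.

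**Figure D4:**
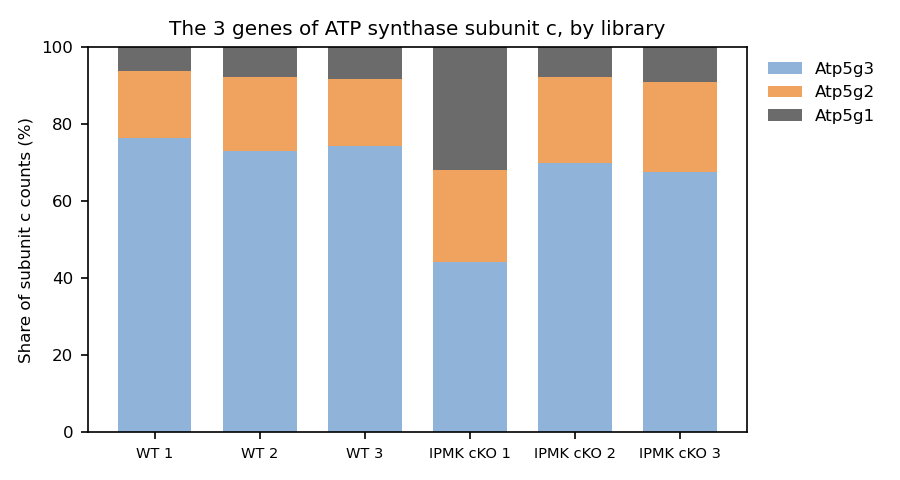
Share of the counts of the 3 subunit c genes (vertical axis, percent, from 0 to 100) in each of the 6 libraries (horizontal axis), with Atp5g3 at the base, Atp5g2 in the middle and Atp5g1 on top. The Atp5g2 band is 22.3% to 23.9% in IPMK cKO and 17.3% to 19.1% in wild type, and Atp5g1 is widest in IPMK cKO replicate 1 at 31.9%.

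IPMK cKO replicate 1 set many of the extremes above. Of the 78 tested members, 13 were over 2-fold above and 13 over 2-fold below the median of the other libraries there, a total of 33.3%, against 3.85% to 12.8% in the other 5 libraries. Ndufs7, a complex I iron-sulphur subunit, had 139 CPM there and 17.0 to 48.8 CPM elsewhere. Ndufb6, a membrane arm subunit, had 0 counts there, which allows up to 0.422 CPM, and 5.23 to 47.1 CPM elsewhere. Ndufa1, also of the membrane arm, had 8.72 CPM against 48.5 to 98.9 CPM.

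In this library, deviations moved with base composition, whose part in the results was not tested. The median GC content of the last 300 transcript bases was 49.7% for members over 2-fold above and 37.3% for those over 2-fold below, against 46.7% for all 77 with a value. Across these 77 genes, which share a library and are not independent replicates, deviation and GC content had a Pearson correlation of 0.353 and a Spearman correlation of 0.369. Over 10377 tested genes the values were 0.211 and 0.224. In the other libraries the Pearson correlation over members lay between -0.272 and 0.168. With each library's trend on GC content removed, an alternative added after the data were seen, the median log2 fold change was +0.19 for the subunit genes and +0.19 for all genes tested, and 0 members were called. That setting raised the median of all genes by over 0.1 and left the subunit genes level with it.

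**Figure D5:**
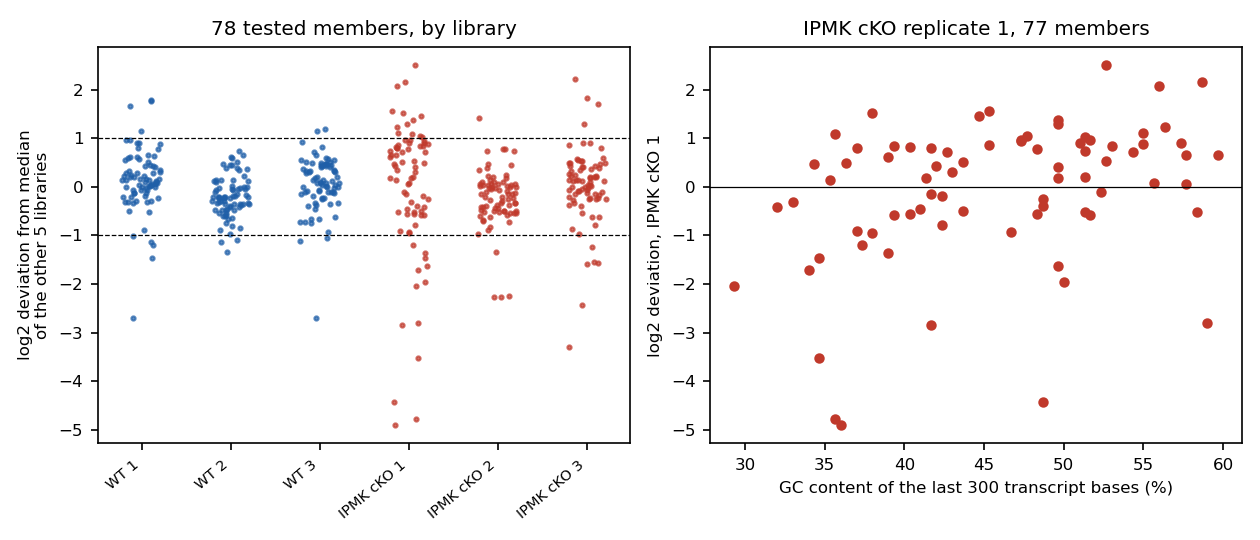
Left, log2 deviation of each of the 78 tested members from the median of the other 5 libraries (vertical axis) in each library (horizontal axis), with dashed lines at 2-fold. Right, the deviations in IPMK cKO replicate 1 against the GC content of the last 300 transcript bases for 77 members. This library has the widest scatter, with 13 members over 2-fold above and 13 below, and the median GC content of the 13 below is 37.3%.

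Of 9 subunits and carriers that the name rule leaves out, 0 were called, 4 had estimates above 0 and 5 below (median -0.08). Etfb, part of the flavoprotein that carries electrons from fatty acid oxidation, had 34.7, 43.3 and 87.6 CPM in the wild type libraries against 141, 84.9 and 96.4 CPM in the cKO libraries (+0.96, SE 0.42). Etfdh, which hands those electrons to ubiquinone, had 8.54, 14.6 and 23.3 CPM against 0.281, 3.79 and 4.36 CPM (-2.45, SE 1.25), all IPMK cKO libraries being lower. The entry 2010107E04Rik had +0.35 (SE 0.35).

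Of 44 tested assembly factors, 0 were called, 20 had estimates above 0 and 24 below (median -0.10). The smallest p-values were those of the complex I factor Timmdc1 (-1.15, SE 0.72), the complex II factor Sdhaf4 (-1.14, SE 0.72) and the complex IV factor Pet117 (+1.90, SE 1.28). Of 19 tested regulators of mitochondrial biogenesis and mitochondrial DNA expression, 0 were called, 5 had estimates above 0 and 14 below (median -0.22). Fewer of them lay below 0 without IPMK cKO replicate 1. Estimates then turned from below to above 0 for Nrf1, Gabpb1, Gabpb2, Myc, Tfb1m and Mterf3, and from above to below for Esrra and Polrmt. Tfam, which packages and transcribes mitochondrial DNA, had 88.2, 50.3 and 57.6 CPM in the wild type libraries against 29.3, 40.1 and 47.8 CPM in the cKO libraries (-0.74, SE 0.41), and the helicase entry Peo1 had 0.104 to 2.77 CPM against 2.25 to 23.2 CPM (+2.85, SE 1.68). Tfb2m, a mitochondrial transcription factor, had -0.71 (SE 0.59). For Tfam and Tfb2m all cKO libraries lay below the wild type range. These lists had 11.1%, 11.4% and 15.8% of tested genes with no overlap between the groups, against 10.4% of all genes tested.

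Counting was not stated to use strand, and 25 of the 83 members found in GENCODE M21 share exon sequence with a gene on the opposite strand. Among those named above are Ndufa11 (with Vmac), Atp5d (with Cbarp), Ndufa2 (with Tmco6), Cox4i1 (with Emc8), Atp5a1 (with Haus1), Ndufs1 (with Eef1b2), Uqcrc2 (with Pdzd9) and Ndufa4l2 (with Shmt2). Reads of such pairs cannot be told apart here. Genes of small respiratory subunits also have many processed pseudogenes, so reads may be split between copies.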

How the data were processed

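Each library has 1 deposited table of counts by gene symbol, whole numbers that the authors left unnormalized, judged from the values. The submitters' processing notes name Bowtie2, edgeR, mm10 and hg19 but give no role for any of them. How tags were counted, with which annotation, strand setting or filter, was not stated in any label or file header.

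All genes were fitted together with edgeR 4.0.16 in R 4.3.3: TMM scaling, filterByExpr (minimum of 10 counts), the quasi-likelihood test and Benjamini-Hochberg adjustment over 10475 genes at 0.05. The SE is the estimate over the square root of F. DESeq2 1.42.0 and limma-voom (limma 3.58.1) were alternatives. The procedure was also run on simulated counts with known changes, and no result given here rests on that run. The common biological coefficient of variation in edgeR, the spread between libraries of a genotype beyond counting error, was 0.81. GC content came from 1 GENCODE M21 transcript per gene.

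Members and lists were chosen with earlier results of these data known. Members named are, per complex, the 4 most abundant, the 3 with the smallest p, those whose groups did not overlap, and core subunits and isoform sets fixed by name. Of the lists outside the rule, the 3 smallest p were named. Ndufs7, Ndufb6 and Ndufa1 were named after their values were seen. The limits given for a count of 0 cover counting error alone, because tags here carry no stated molecular identifier. 15 members had no promoter entry. 1 member that the rule names and 1 marker are not reported here by name.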

Additional observations from a re-analysis of the deposited data

How the results depend on the processing

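No subunit gene was called in either direction under any alternative setting run, those with DESeq2 and limma-voom included (0 in each). Over all genes, DESeq2 called 1 gene higher and 3 lower, and edgeR called 1 lower without IPMK cKO replicate 1 and 1 lower without both libraries numbered 1. With the replicate block, edgeR called 0 genes and the median log2 fold change of the subunit genes was -0.01. Same-numbered libraries correlated by 0.0454, 0.0877 and 0.0265 in their deviations from the group means over all genes tested. This was too weak to pair them, although each correlated best with its own number. Leaving out 1 library in turn gave medians of -0.05 to +0.11 for the subunit genes and 0 to 1 genes called lower over all genes. The log2 ratios of summed levels then ranged from -0.06 to +0.27 for complex I, +0.07 to +0.37 for complex II, +0.08 to +0.44 for complex III, -0.13 to +0.26 for complex IV and -0.09 to +0.10 for the ATP synthase, and all alternatives moved each complex by less than the SD between libraries. Of the 46 named genes with an estimate, 12 changed sign without IPMK cKO replicate 1, 11 without both libraries numbered 1, and 0 to 4 in each other setting. No such change was between estimates that both lay over 1 SE from 0.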
